A study of Mus musculus with 6 samples.

Results

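The genes described here are 10 transcripts that mark macrophages in the mouse embryo: *Csf1r*, *Cx3cr1*, *Mrc1*, *F13a1*, *Adgre1*, *Ptprc*, *C1qa*, *C1qb*, *C1qc* and *Fcer1g*. They were looked up by symbol among the 55401 gene identifiers of the count table, and all 10 were among the 16784 genes with enough counts to be tested. The genes were chosen by name with their measured levels in these 6 libraries already known, and the values that led to the choice were not stated. Their levels and their difference between genotypes are therefore given as a description, with no test.

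Embryonic macrophages first arise from progenitors of the yolk sac, enter the embryo with the circulation and seed every tissue, where they clear dying cells and shape vessels and the nervous system. They depend on the receptor tyrosine kinase CSF1R, whose ligands CSF1 and IL34 are made by the surrounding tissue. They are known for scavenger and pattern receptors, for Fc receptors that signal through small ITAM adaptors, and for production of the complement component C1q.

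RNA was sequenced from lysates of whole embryos at E10.5, in midgestation, on a C57BL/6J background. The 3 WT libraries were from littermates with an unmodified *Igf2* locus. The 3 5C libraries were from embryos that carried a tandem array of *Mir483* copies at the endogenous *Igf2* locus, made in embryonic stem cells by cassette exchange and passed on by chimeric fathers. The study's methods describe each as a pooled pair of male embryos. *Mir483* is a microRNA gene inside an *Igf2* intron, and the comparison asks what more of it does to gene expression in the embryo. The array is present in every cell and no macrophages were isolated. A change in macrophage number and a change in RNA per macrophage therefore cannot be told apart. Nothing in the labels says that the libraries of a genotype came from separate litters, and p-values measure only the spread between these 3 samples.

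The edited gene followed the labels. *Mir483* was measured at 0.577, 0.429 and 0.319 CPM (counts per 1000000 of the scaled library total) in WT replicates 1 to 3 and at 5.15, 4.35 and 2.56 CPM in 5C replicates 1 to 3. Every 5C library lay above every WT library, with a log2 fold change of 3.05 (SE 0.36, adjusted p = 0.169, edgeR quasi-likelihood test with Benjamini-Hochberg adjustment), so the difference did not pass the threshold in this test, while it did with DESeq2 (adjusted p = 1.63e-05). These reads come from the primary transcript, not from the mature microRNA.

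Some libraries stood apart. The summed level of 11 yolk sac endoderm markers was 6778 CPM in WT replicate 1 and 1354 CPM in 5C replicate 3, against 198 to 564 CPM in the other libraries. The summed level of 7 decidual markers was 41.9 to 54.0 CPM in WT replicate 3, 5C replicate 1 and 5C replicate 3 and 10.4 to 12.5 CPM in the rest. Against the stated sex of the pools, 4 Y-linked transcripts summed to 4.12 CPM in WT replicate 2 and 0.0854 CPM in 5C replicate 2, compared with 130 to 212 CPM in the others. Totals ran from 6357343 counts in WT replicate 3 to 19151368 in WT replicate 1. The part of these differences in the values below was not tested. Some values without these libraries are given below or with the other processing settings at the end. No fit left out all the libraries high in decidual markers.

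The sequences of the 2 mature products of the edited gene were compared with the macrophage genes. They are given from RefSeq on GRCm38.p6 with the seed, bases 2 to 8, in capitals. MiR-483-3p lies at chr7:142654932-142654952 and miR-483-5p at chr7:142654968-142654989, both on the minus strand. The seed is the stretch by which a microRNA pairs with a messenger RNA.
miR-483-3p: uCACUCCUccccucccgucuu
miR-483-5p: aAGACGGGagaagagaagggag

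Among the annotated 3′ UTRs of the 10 genes, taken from the longest coding transcript, the match to the miR-483-3p seed occurred once, in *Csf1r*, at base 431 of 1669. The same match was found in 12.99% of the 13903 tested genes that have such a UTR. The match to the miR-483-5p seed occurred once, in *C1qa*, at base 221 of the 237 bases of its 3′ UTR, and in 3.61% of the tested genes. The *C1qa* site is shown with its flanks, the seed match in capitals. These matches are letters in a sequence and say nothing of binding.
*C1qa* site for miR-483-5p: ataaacgatcCCCGTCTgtgtctgtga

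The upstream sequences of 3 members are shown because they hold the letters GAGGAAG, a core that the myeloid transcription factor PU.1 (gene *Spi1*) can bind. RefSeq windows from 250 bases before to 50 bases after a start were at hand for 7 of the 10 genes, in 9 windows. *Csf1r*, *Adgre1* and *C1qa* were not among them. GAGGAAG, read on both strands, was present in 4 of the 9 windows, which belong to *Mrc1*, *C1qc* and *F13a1*, and in 13.6% of 32851 windows of all genes. The letters TGCTGAC, a core of MAF sites, were in 0 of the 9 windows and in 4.67% of all windows. TGANTCA, the AP-1 core, was likewise in 0 of the 9 and in 7.81% of all. The MAF and AP-1 letters can overlap each other in TGAC. The 250 bases before the start are printed on the strand of the gene, with GAGGAAG or its reverse complement in capitals: at chr2:14229164-14229413 for *Mrc1* (plus strand), at chr4:136892915-136893164 for *C1qc* (minus strand) and at chr13:37050245-37050494 for the more upstream start of *F13a1* (minus strand).
*Mrc1* upstream: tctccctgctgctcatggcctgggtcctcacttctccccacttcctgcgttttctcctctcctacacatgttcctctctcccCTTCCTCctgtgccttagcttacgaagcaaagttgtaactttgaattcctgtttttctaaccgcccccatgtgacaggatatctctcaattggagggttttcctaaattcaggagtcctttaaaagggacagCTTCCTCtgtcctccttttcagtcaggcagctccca
*C1qc* upstream: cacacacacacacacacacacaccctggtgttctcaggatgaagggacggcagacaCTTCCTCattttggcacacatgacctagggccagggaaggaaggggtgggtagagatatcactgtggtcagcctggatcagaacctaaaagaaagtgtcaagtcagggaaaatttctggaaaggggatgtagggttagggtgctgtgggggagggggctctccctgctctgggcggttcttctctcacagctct
*F13a1* upstream: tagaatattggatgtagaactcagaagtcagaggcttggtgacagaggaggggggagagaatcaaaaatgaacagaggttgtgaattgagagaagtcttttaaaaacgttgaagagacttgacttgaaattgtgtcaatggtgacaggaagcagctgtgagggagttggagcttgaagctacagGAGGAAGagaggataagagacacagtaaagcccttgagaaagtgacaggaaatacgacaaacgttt

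The matches began 168 and 36 bases before the start in *Mrc1*, 194 bases before it in *C1qc*, and 66 bases before the upstream start in *F13a1*. The *F13a1* windows also held a match 17 bases after that start and 14 bases after the other start. The windows of *C1qb*, *Cx3cr1*, *Fcer1g* and *Ptprc* held none of the motifs, which says only that these letters were not there.

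All 10 macrophage genes were measured in all 6 libraries, at 1.202 to 22.7 CPM and 12 to 433 counts. They were low in the whole embryo, where 52.3% of the tested genes had a higher mean level than *Mrc1*, the most counted member, and 84.2% had a higher mean than *Fcer1g*, the least counted. By fitted log2 fold change all 10 were on the higher side in 5C, by 0.01 to 0.45 with a median of 0.18, while the median over all genes tested was -0.002 and 49.3% of them were on the higher side. By edgeR, 0 of the 10 passed the rule for a differentially expressed gene (adjusted p under 0.05 and fold change over 1.5), which 0% of all genes passed. DESeq2 likewise called 0 of the 10, and 11 of all genes. None had every 5C library above every WT library, which 6.26% of all genes had. Since the choice of the genes may have used these values, nothing is read from the counts.

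**Figure D1:**
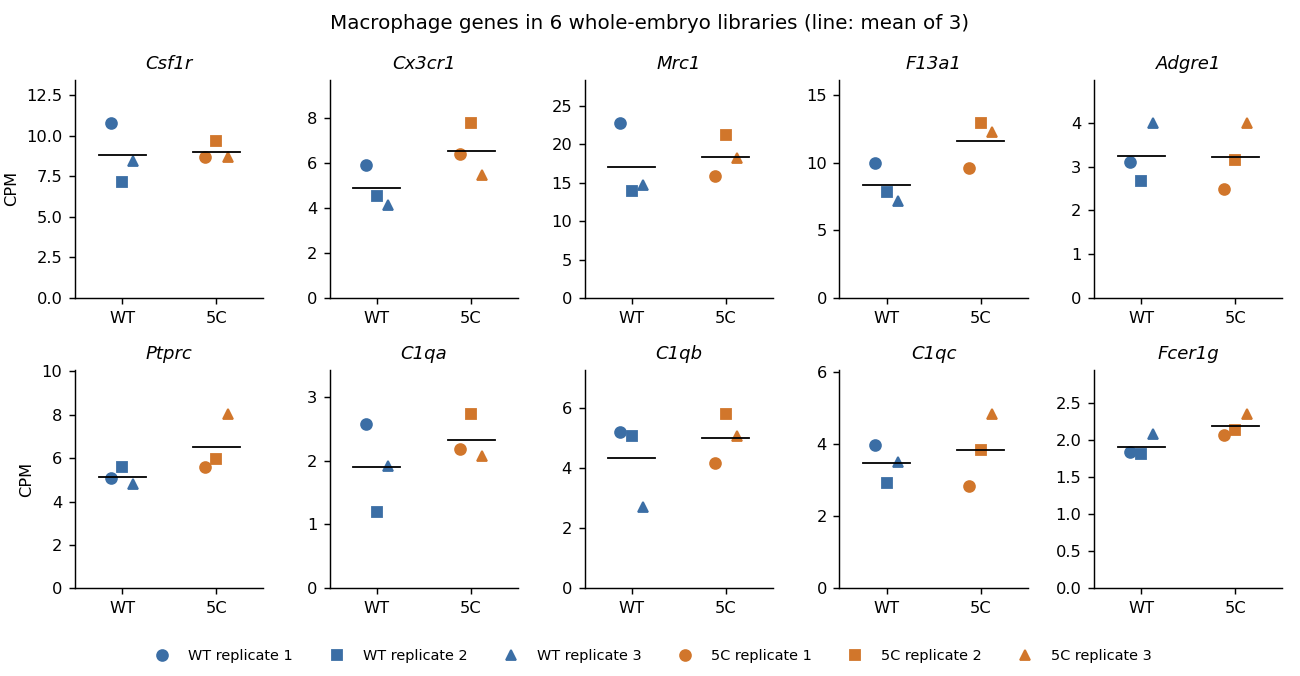
Level of each macrophage gene in CPM (vertical axis, starting at 0) in the 3 WT and 3 5C libraries, with a line at the mean of each genotype. In every panel the points of the 2 genotypes overlap, and WT replicate 1 holds the highest value for *Csf1r* and *Mrc1*.

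*Csf1r* encodes the receptor for CSF1 and IL34 on which macrophage survival depends (GRCm38 chromosome 18, 61100598 to 61132149, plus strand). Its level was 10.8, 7.13 and 8.46 CPM in WT replicates 1 to 3 and 8.67, 9.65 and 8.68 CPM in 5C replicates 1 to 3. The 5C values lay inside the WT range, with WT replicate 1 the highest and WT replicate 2 the lowest. WT averaged 8.78 ± 1.84 CPM and 5C 8.999 ± 0.562 CPM (SD, n = 3), a log2 fold change of 0.02 (SE 0.17). Of the *Csf1r* exon bases, 15.1% lie under exons of *Hmgxb3* on the opposite strand, and the strand setting of the counting was not given in the sources used here.

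*Cx3cr1* encodes the receptor for fractalkine, a chemokine anchored on the surface of other cells (chromosome 9, 119901616 to 120069879, minus strand). It was at 5.93, 4.55 and 4.15 CPM in WT replicates 1 to 3 and at 6.42, 7.77 and 5.48 CPM in 5C replicates 1 to 3. Only WT replicate 1 reached into the 5C range, above 5C replicate 3. The log2 fold change was 0.39 (SE 0.20), with WT averaging 4.88 ± 0.934 CPM and 5C 6.56 ± 1.15 CPM (SD, n = 3). It stayed on the higher side, at 0.26 to 0.58, in the 6 fits that each left out 1 library, and was 0.68 without WT replicate 1 and 5C replicate 3, the libraries highest in yolk sac markers.

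Among the endocytic and adhesion receptors, *Mrc1* encodes the mannose receptor CD206, which takes up glycoproteins (chromosome 2, 14229392 to 14332057, plus strand). It was the most counted member, at 22.7, 13.9 and 14.7 CPM in WT replicates 1 to 3 and 15.9, 21.2 and 18.2 CPM in 5C replicates 1 to 3. WT replicate 1 was above all 5C libraries and the other WT libraries were below all of them. The log2 fold change of 0.08 (SE 0.19) became 0.36 without WT replicate 1. It fell to -0.07 without WT replicate 2 and to -0.17 without both replicate 2 libraries, those low in Y-linked transcripts. Its spread within genotypes, a coefficient of variation of 22.1%, was the largest against counting error of the 10 genes, with a variance 10.2 times that of counting alone.

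*Adgre1* encodes F4/80, the adhesion G-protein-coupled receptor used as a mouse macrophage marker (chromosome 17, 57358691 to 57483527, plus strand). It was at 3.10, 2.66 and 3.99 CPM in WT replicates 1 to 3 and at 2.48, 3.16 and 3.99 CPM in 5C replicates 1 to 3. The genotypes covered nearly the same range, and replicate 3 was the highest in each. The mean was slightly lower in 5C, 3.21 ± 0.752 CPM against 3.25 ± 0.676 CPM (SD, n = 3), whereas the fitted log2 fold change was 0.01 (SE 0.24), so its side of 0 depends on how libraries are weighted.

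*Ptprc* encodes CD45, a receptor tyrosine phosphatase of white blood cells (chromosome 1, 138062861 to 138175708, minus strand). It was at 5.09, 5.58 and 4.79 CPM in WT replicates 1 to 3 and 5.57, 5.98 and 8.04 CPM in 5C replicates 1 to 3. 5C replicate 3 stood above the rest, and 5C replicate 1 lay just below WT replicate 2. The log2 fold change was 0.33 (SE 0.19) and 0.16 without 5C replicate 3. The same library had the highest summed level of 10 lymphocyte markers, 4.77 CPM against 1.37 to 2.39 CPM elsewhere, and whether the *Ptprc* value goes with it was not tested.

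*F13a1* encodes the A subunit of coagulation factor XIII, a transglutaminase that resident macrophages and megakaryocytes make (chromosome 13, 36867178 to 37050244, minus strand). Its level was 9.97, 7.81 and 7.18 CPM in WT replicates 1 to 3 and 9.57, 12.9 and 12.2 CPM in 5C replicates 1 to 3. The 5C libraries were above the WT libraries except that WT replicate 1 exceeded 5C replicate 1. WT averaged 8.32 ± 1.46 CPM and 5C 11.6 ± 1.76 CPM (SD, n = 3), a log2 fold change of 0.45 (SE 0.17), the largest of the 10. The log2 fold change was 0.36 to 0.61 when each library was left out in turn, and 0.32 without both replicate 2 libraries.

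Since *F13a1* is also a platelet transcript, megakaryocyte markers are set beside it. The 10 markers summed to 28.9, 21.5 and 35.6 CPM in WT replicates 1 to 3 and to 34.4, 31.9 and 33.5 CPM in 5C replicates 1 to 3. WT replicate 3, the lowest library for *F13a1*, was the highest for these markers. Among the 7 markers tested, 6 were on the higher side in 5C and 1 on the lower (median log2 fold change 0.17). Their part in the *F13a1* values was not tested.

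The 3 chains of C1q, the recognition molecule of the classical complement pathway, are encoded side by side within 18675 bases of chromosome 4 (136880129 to 136898803), all on the minus strand, with 3616 bases between *C1qb* and *C1qc* and 2851 between *C1qc* and *C1qa*. *C1qa* was at 2.57, 1.202 and 1.91 CPM in WT replicates 1 to 3 and 2.18, 2.73 and 2.06 CPM in 5C replicates 1 to 3. *C1qb* was measured at 5.19, 5.07 and 2.71 CPM across the WT replicates, against 4.18, 5.81 and 5.05 CPM for 5C, in the same order. *C1qc* ran at 3.99, 2.92 and 3.51 CPM through the WT replicates, against 2.85, 3.84 and 4.84 CPM for 5C. The lowest library differed for each chain: WT replicate 2 for *C1qa*, WT replicate 3 for *C1qb* and 5C replicate 1 for *C1qc*.

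The log2 fold changes of the chains were 0.25 (SE 0.29) for *C1qa*, 0.16 (SE 0.25) for *C1qb* and 0.13 (SE 0.24) for *C1qc*, each smaller than its error. Each chain changed sign in some fit that left out a library. Depth limits these values. In WT replicate 3, the shallowest library, *C1qa* had 12 counts and *C1qb* 17 counts, with exact Poisson 95% intervals of 0.989 to 3.34 CPM and 1.58 to 4.34 CPM that cover counting error only.

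Within libraries, the chains were compared per kilobase of exon (RPKM, CPM divided by the merged exon length in kilobases). *C1qb* was above *C1qa* in all 6 libraries, with a ratio of 1.35 to 4.03 and a mean of 2.25. It was also above *C1qc* in all 6, at 1.37 to 3.08. The ratio of *C1qc* to *C1qa* lay on both sides of 1, at 0.703 to 1.31. With the longest transcript as the length instead, *C1qc* was above *C1qa* in all 6 libraries (1.13 to 2.10), and *C1qb* was below *C1qc* in 1 library, at 0.854. Both lengths are the same for *C1qa* (1040 bases) and for *C1qb* (1088 bases). The ratio of *C1qb* to *C1qa* therefore could not change with the choice of length.

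**Figure D2:**
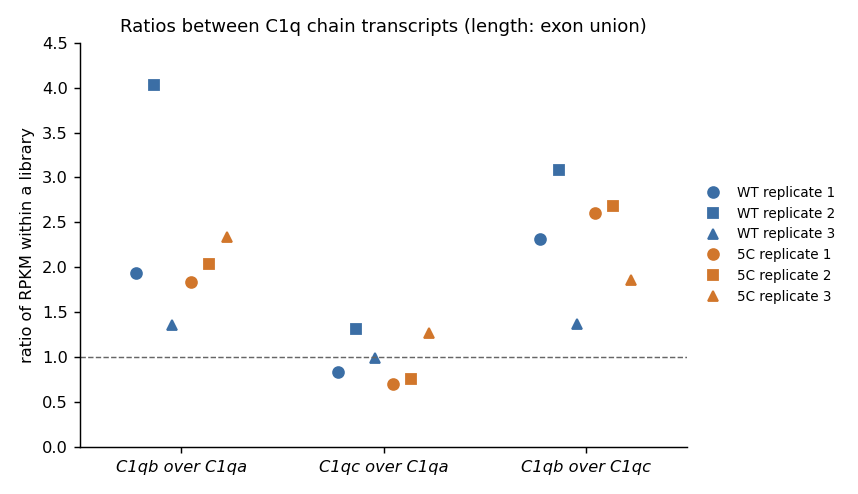
Ratios between RPKM values of the C1q chain transcripts within each library (vertical axis, merged exon length), with a dashed line at 1. *C1qb* over *C1qa* ranged from 1.35 to 4.03 and *C1qc* over *C1qa* from 0.703 to 1.31, with WT and 5C libraries mixed.

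*Fcer1g* encodes the Fc receptor gamma chain, the ITAM adaptor through which Fc receptors signal (chromosome 1, 171229572 to 171234365, minus strand). It was at 1.84, 1.80 and 2.07 CPM in WT replicates 1 to 3 and at 2.06, 2.13 and 2.35 CPM in 5C replicates 1 to 3. The genotypes overlapped only by WT replicate 3, just above 5C replicate 1. The log2 fold change was 0.21 (SE 0.21). At 13 to 35 counts per library its spread within genotypes, 7.29%, was below the 20.4% that counting alone would give, so the closeness of its values carries little information.

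**Figure D3:**
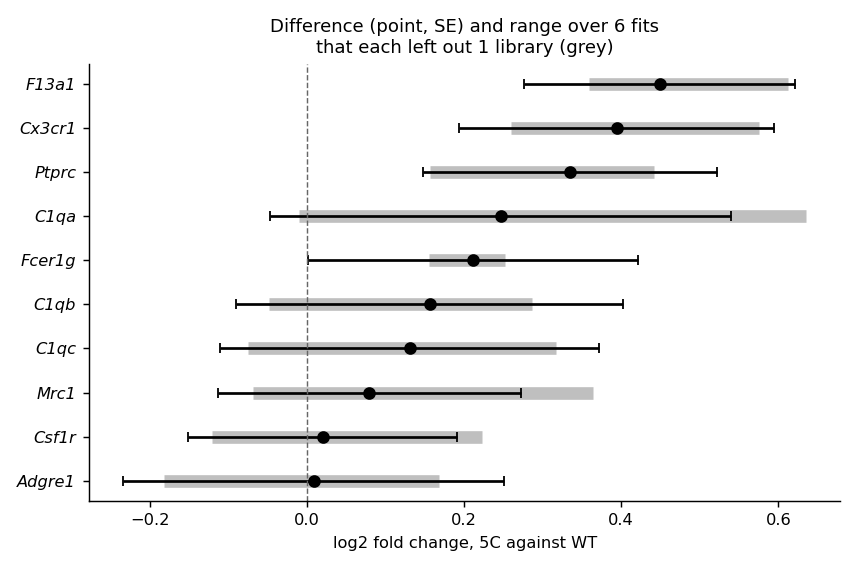
Log2 fold change of each macrophage gene, 5C against WT (horizontal axis), with its standard error as the bar and, in grey, the range over the 6 fits that each left out 1 library. *F13a1*, *Cx3cr1*, *Ptprc* and *Fcer1g* have grey ranges above 0, and the other 6 genes have grey ranges that reach below it.

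Summed over the 10 genes, the level was 71.1, 52.6 and 53.4 CPM in WT replicates 1 to 3 and 59.9, 75.1 and 70.9 CPM in 5C replicates 1 to 3. WT replicate 1 stood among the 5C libraries, and WT averaged 59.07 ± 10.46 CPM and 5C 68.6 ± 7.88 CPM (SD, n = 3), 1.16 times as high. 5C replicate 2 was the highest library for 4 of the genes and 5C replicate 3 for 3, while WT replicate 2 and WT replicate 3 were each the lowest for 4. *Cx3cr1*, *F13a1*, *Ptprc* and *Fcer1g* stayed on the higher side in all 19 alternatives, and the other 6 genes changed sign in at least 1. Without WT replicate 2, or without both replicate 2 libraries, 6 of the 10 were on the higher side and 4 on the lower. Without the libraries highest in yolk sac markers it was 9 and 1. The log2 fold changes were then 0.72 for *C1qa*, 0.68 for *Cx3cr1*, 0.56 for *F13a1*, 0.37 for *Mrc1* and 0.25 for *Csf1r* and for *C1qb*. They were 0.13 for *Ptprc* and for *Fcer1g*, 0.064 for *C1qc* and -0.19 for *Adgre1*.

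Per kilobase of merged exon, the order of mean levels in WT was *C1qb* at 3.97 RPKM, *Mrc1* at 2.68, *Fcer1g* at 2.18, *C1qa* at 1.82, *C1qc* at 1.80, *Csf1r* at 1.52, *F13a1* at 1.23, *Cx3cr1* at 1.08, *Adgre1* at 1.003 and *Ptprc* at 0.281 RPKM. Neighbours in this order overlapped between libraries except *Adgre1* and *Ptprc*. In 5C the order was the same but for *F13a1*, at 1.72 RPKM, above *Csf1r*, at 1.56 RPKM, and those also overlapped, whereas *C1qb* and *Mrc1* did not overlap in 5C. The place of *Ptprc* rests on its merged exons of 18313 bases: with its longest transcript of 5740 bases its WT level was 0.898 RPKM and overlapped that of *Adgre1*. *C1qb* and *Mrc1* held the first places under either length.

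**Figure D4:**
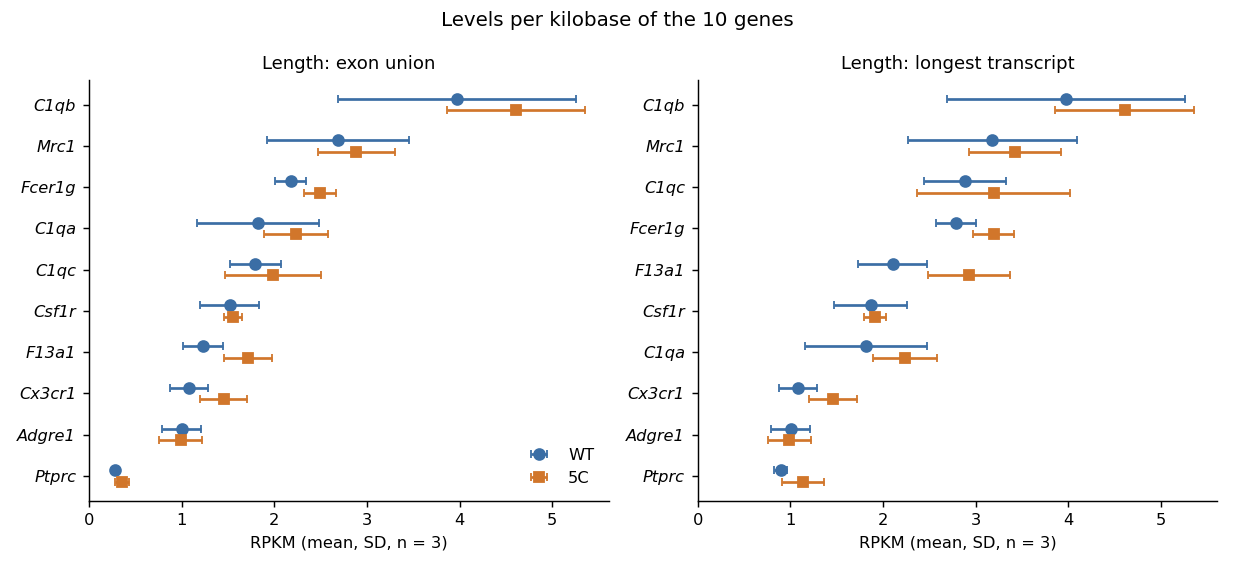
Mean RPKM (horizontal axis, from 0) of the 10 genes in WT and 5C, with the SD over 3 libraries as bars, for the merged exon length on the left and the longest transcript on the right. *C1qb* and *Mrc1* are highest in both panels, and *Ptprc* moves from 0.281 to 0.898 RPKM in WT with the choice of length.

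Over the 6 libraries, the log2 level of *F13a1* followed the mean of the other 9 genes most closely (Pearson r = 0.91, n = 6 libraries) and that of *Adgre1* least (r = 0.23). The non-member genes whose pattern was most like the mean standardised pattern of the 10 genes were *Tob1* (r = 0.99), *Srxn1* (r = 0.99), *Mybpc1* (r = 0.99), *Slc30a5* (r = 0.99) and *Fam167b* (r = 0.99), all over 6 libraries. These are descriptions over few libraries that differ in depth and composition, chosen as the highest of all genes tested. *Slc30a5*, a zinc transporter, ran from 86.0 CPM in WT replicate 2 to 107 CPM in 5C replicate 2.

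The label of the genes was held against 34 other macrophage genes. *Cd68*, a lysosomal glycoprotein of macrophages, was at 4.61 to 6.01 CPM over the 6 libraries, and *Tyrobp*, the ITAM adaptor DAP12, at 1.37 to 3.19 CPM. *Trem2* (4 to 18 counts) and *Aif1*, which encodes IBA1 (2 to 12 counts), were detected in every library but fell below the count filter. *Cd163* had 0 counts in all libraries, which in the deepest allows up to 0.157 CPM and in the shallowest up to 0.479 CPM, and *Timd4*, a phagocytic receptor of fetal macrophages, had 0 to 2 counts. *Lyve1*, which lymphatic and other endothelium also makes, was at 9.29 CPM in WT replicate 1 and 1.37 to 2.99 CPM in the others. Several genes of the list, such as *Dab2* and *Axl*, are made by many other embryonic cells, so the list is not specific to macrophages.

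Of these 34 genes, 26 were tested, 15 on the higher side in 5C and 11 on the lower (median log2 fold change 0.02). At an unadjusted p under 0.05, 3 were on the higher side, where 2.55% of all genes tested were, and 1 on the lower, where 3.47% were. With the count filter, none passed after adjustment, by edgeR or by DESeq2. *Lyz2*, lysozyme M, was at 2.73, 2.58 and 2.55 CPM in WT replicates 1 to 3 and 3.39, 4.35 and 5.77 CPM in 5C replicates 1 to 3. Every 5C library was above every WT library, as for 6.26% of all genes tested, with a log2 fold change of 0.77 (SE 0.23, edgeR adjusted p = 0.781). *Stab1*, the scavenger receptor stabilin-1, which sinusoidal endothelium also makes, was at 31.43 to 43.4 CPM in WT and 28.2 to 31.39 CPM in 5C, each 5C library below each WT library (log2 fold change -0.33, SE 0.12, edgeR adjusted p = 0.781). The share of all genes tested with that downward order is not reported here. *Pf4*, platelet factor 4, which megakaryocytes also make, was at 6.35 to 9.09 CPM in WT and 10.1 to 10.7 CPM in 5C (log2 fold change 0.39, SE 0.16, edgeR adjusted p = 0.781).

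The ligands were looked at with the receptors. *Csf1*, a ligand of CSF1R, was at 15.1, 7.30 and 9.89 CPM in WT replicates 1 to 3 and 10.7, 13.5 and 9.82 CPM in 5C replicates 1 to 3, so the genotypes overlapped (log2 fold change 0.04, SE 0.25, edgeR adjusted p = 0.986). *Il34*, the other ligand, had 0 to 3 counts per library and was not tested. *Cx3cl1*, which encodes fractalkine, was at 2.94, 3.35 and 4.31 CPM in WT replicates 1 to 3 and at 2.55, 2.31 and 2.71 CPM in 5C replicates 1 to 3. All 5C libraries were below all WT libraries, but the log2 fold change of -0.44 (SE 0.21) did not pass (edgeR adjusted p = 0.781). How many of all genes tested lay this way is not reported here. Of the 8 growth factors and chemokines listed, 4 were tested, 1 on the higher side and 3 on the lower. *Cxcl12*, a chemokine of mesenchyme, had a log2 fold change of -0.24 (SE 0.10), and *Tgfb1*, which sustains several macrophage types, one of -0.63 (SE 0.30), with WT replicate 3 at 11.5 CPM and the other libraries at 4.34 to 5.88 CPM, and it was -0.22 without WT replicate 3. Both had an edgeR adjusted p of 0.781.

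All 12 transcription factors listed for macrophages were tested, 5 on the higher side in 5C and 7 on the lower (median log2 fold change -0.05), with 0 past an unadjusted p of 0.05 in the edgeR test. *Spi1* was at 1.63, 1.55 and 0.479 CPM in WT replicates 1 to 3 and 1.9997, 1.62 and 1.64 CPM in 5C replicates 1 to 3. The low value is 3 counts, in the shallowest library (log2 fold change 0.39, SE 0.34, edgeR adjusted p = 0.817), and without that library the log2 fold change of *Spi1* was 0.14. *Irf8*, a factor of the myeloid lineage, was at 3.69 to 4.31 CPM in WT and 3.51 to 3.84 CPM in 5C (log2 fold change -0.11, SE 0.17, edgeR adjusted p = 0.908). *Maf*, which lens, kidney and other tissues also make, was at 22.4 CPM in WT replicate 1 and 11.5 to 13.1 CPM elsewhere (log2 fold change -0.37, SE 0.22, edgeR adjusted p = 0.781), and without WT replicate 1 the log2 fold change was 0.02. *Nr1h3* and *Cebpb*, a lipid-sensing receptor and a factor of myeloid and liver-type cells, were likewise highest in WT replicate 1, at 4.72 and 4.62 CPM.

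Of 20 further complement genes, 12 were tested, 7 on the higher side and 5 on the lower (median log2 fold change 0.03). Of the proteases that C1q activates, *C1ra* had 0 to 7 counts and *C1s1* was at 0.606 to 2.89 CPM (8 to 55 counts, log2 fold change -0.23, SE 0.55, edgeR adjusted p = 0.941). *C3ar1*, the receptor for the C3a fragment, was at 2.07 to 3.46 CPM in WT and 2.91 to 3.93 CPM in 5C (log2 fold change 0.33, SE 0.24, edgeR adjusted p = 0.794). *Cfi*, factor I, was at 22.9 CPM in WT replicate 1, 5.34 CPM in 5C replicate 3 and 0.598 to 1.44 CPM in the others, the same libraries that were highest in yolk sac markers. *Cd55*, a regulator on the surface of many cells, was at 3.51 to 7.77 CPM in WT and 6.54 to 8.47 CPM in 5C.

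For the Fc receptors and the kinases below *Fcer1g*, 12 of 16 genes were tested, 7 on the higher side and 5 on the lower, with a median log2 fold change of 0.02 and 0 past an unadjusted p of 0.05. *Fcgr1*, the high-affinity IgG receptor, was at 0.638 to 0.944 CPM in WT and 0.598 to 1.21 CPM in 5C. *Fcgr3*, a low-affinity IgG receptor, was at 14.8 CPM in WT replicate 1 and 2.73 to 6.12 CPM elsewhere, and its log2 fold change of -0.84 (SE 0.58, edgeR adjusted p = 0.789) was 0.48 without WT replicate 1. *Syk*, the kinase that binds phosphorylated ITAMs, was at 10.1 to 12.3 CPM in WT and 10.6 to 12.7 CPM in 5C (log2 fold change 0.04, SE 0.13, edgeR adjusted p = 0.959). *Vav1* and *Ptpn6*, an exchange factor and a phosphatase of blood cells, had log2 fold changes of 0.49 (SE 0.24) and 0.36 (SE 0.22), both with an edgeR adjusted p of 0.781.

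Markers of other cells that can hold some of the 10 transcripts were set beside them. The 12 granulocyte and monocyte markers summed to 5.58 to 7.18 CPM in WT and 5.45 to 6.57 CPM in 5C, with 1 of the 12 at 0 in every library. Mast cell markers were near 0, with 4 of 6 at 0 in all libraries and sums of 0.160 to 0.712 CPM. Of 10 lymphocyte markers, *Cd3e* and *Cd3g* were at 0 in all libraries. The 6 blood progenitor markers summed to 127 to 132 CPM in WT and 131 to 136 CPM in 5C, and the 11 endothelial markers to 375 to 412 CPM in WT and 366 to 399 CPM in 5C. The 7 erythroid markers, the most abundant of these lists, summed to 9122 to 12478 CPM in WT and 8341 to 16238 CPM in 5C.

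The lists that differed most between libraries were those of tissue around the embryo. All 5 tested decidual markers were on the higher side in 5C (median log2 fold change 1.82), and all 10 tested yolk sac endoderm markers were on the lower side, with a median of -2.12. With the count filter, none of them passed after adjustment. The yolk sac direction turned without WT replicate 1, where 8 of 9 tested markers were on the higher side, with a median of 0.73. Without both WT replicate 1 and 5C replicate 3 it was again the lower side, for 9 of 9 tested markers, with a median of -1.06. The decidual median was 0.80 without 5C replicate 3, 1.18 without WT replicate 1, and 0.18, with 4 of 5 on the higher side, without WT replicate 1 and 5C replicate 3. The 6 trophoblast markers summed to 2.39 to 5.84 CPM in WT and 1.28 to 7.97 CPM in 5C. Library by library, 5C replicate 3 was high both in the 10 macrophage genes (70.9 CPM) and in decidual markers (54.0 CPM), and WT replicate 2 was the lowest in both (52.6 and 10.4 CPM). 5C replicate 2, the highest for the 10 genes at 75.1 CPM, had a decidual sum of 12.5 CPM, and WT replicate 3, at 53.4 CPM, one of 49.0 CPM. WT replicate 1 was high in the 10 genes and in yolk sac markers, and 5C replicate 2 had the lowest yolk sac sum. The part of this tissue in the macrophage gene values was not tested.

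**Figure D5:**
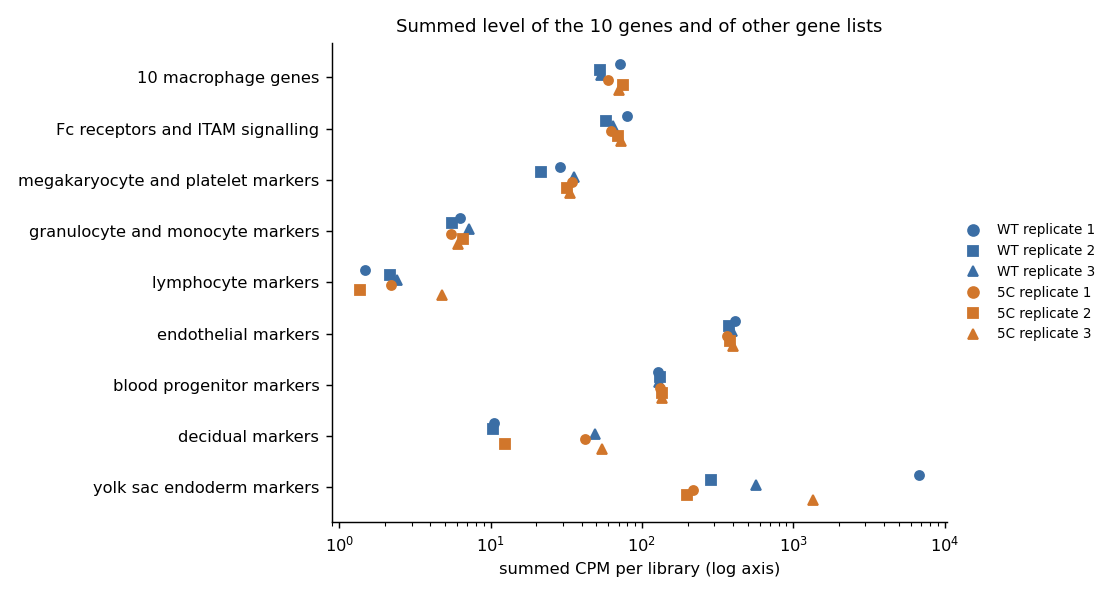
Summed CPM per library (horizontal log axis) for the 10 macrophage genes and for marker lists of other cells and of signalling partners. The 10 genes span 52.6 to 75.1 CPM, while yolk sac endoderm markers span 198 to 6778 CPM and decidual markers 10.4 to 54.0 CPM.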

How the data were processed

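RNA was measured in 3 WT and 3 5C libraries of whole embryos. The authors used STAR with GRCm38 and deposited whole-number counts of reads for each Ensembl gene, not normalized. The strand setting of the counting is not given in the sources used here. Totals were 6357343 to 19151368 counts per library, so that 3 counts correspond to 0.157 to 0.479 CPM; these limits describe counting error alone. All pairs of libraries differed by more than sampling noise (chi-square per gene of at least 5.26).

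Genes were kept by filterByExpr and scaled by TMM. The genotypes were then compared with edgeR 4.0.16 (quasi-likelihood test) in R 4.3.3, with Benjamini-Hochberg adjustment over the 16784 genes tested and genotype as the only term. The script was tested on simulated data. CPM uses the TMM-scaled total. Symbols, exons and 3′ UTRs came from GENCODE M21, which held 55141 of the 55401 identifiers. Promoters and microRNAs came from RefSeq tables on GRCm38.p6. Protein sequences were not analysed here, and some genes of the lists are not reported here.

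The 10 genes and all lists were chosen with earlier results of these data known. Named genes were the 10 members, *Mir483*, a set fixed by name, at most 3 per list with the smallest p, and the 5 genes most like the members. Alternatives were DESeq2 1.42.0, limma-voom (limma 3.58.1), other scalings, filters and moderation, GC-content offsets, a replicate block, and fits without libraries.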

Additional observations from a re-analysis of the deposited data

How the results depend on the processing

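Of the 10 macrophage genes, 0 were differentially expressed in any of the 19 alternatives, and their median log2 fold change of 0.18 stayed at 0.097 (without WT replicate 2) to 0.30 (without WT replicate 1) when each library was left out and at 0.078 to 0.25 otherwise. The number on the higher side was 10, 6 to 10 when each library was left out, lowest without WT replicate 2, and 6 without both replicate 2 libraries. The number of differentially expressed genes over all genes was 0 with edgeR, where 1011 genes had an unadjusted p under 0.05. It was 11 with DESeq2, 3 with robust moderation, 319 with no count filter, 1 with GC-content offsets and replicate block, and 2 without the libraries highest in yolk sac markers, a setting chosen after seeing the data. It was 0 to 1 when each library was left out, with 1 without 5C replicate 2 or 5C replicate 3. The 1011 genes became 519 with GC-content offsets and replicate block, 2170 with no count filter and 456 to 1803 when each library was left out, lowest without 5C replicate 2 and highest without WT replicate 2. In the other lists, 11 genes had an unadjusted p under 0.05. This was 42 with no count filter, 7 with GC-content offsets and replicate block, 6 with at least 10 counts in every sample, 7 with limma-voom, 6 with robust moderation, 19 without the libraries highest in yolk sac markers, and 8 to 30 when each library was left out, highest without WT replicate 2. Of these lists 22 genes were differentially expressed with no count filter and 0 otherwise. Among the 22 were *Lyve1* (edgeR adjusted p = 0.0104), *Fcgr3* (0.0129) and *Cfi* (3.18e-15). *Mir483* passed the threshold with DESeq2 (adjusted p = 1.63e-05), robust moderation (0.00844), no count filter (5.16e-16), GC-content offsets and replicate block (0.0481), without 5C replicate 3 (0.0256) and without the libraries highest in yolk sac markers (0.0186). With the longest transcript as length, the mean ratio of *C1qc* to *C1qa* was 1.57 instead of 0.976 and that of *C1qb* to *C1qc* 1.44 instead of 2.32. The cause of these differences was not tested.

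Deviations from the genotype mean correlated at -0.17 to 0.20 between libraries of equal replicate number and at -0.20 to 0.31 between others. So few pairs cannot settle whether equal numbers were paired. With the replicate block, 9 of the 10 genes were on the higher side, the median was 0.19, 782 genes had an unadjusted p under 0.05, and the log2 fold change of *Adgre1* was -0.036 (-0.023 with GC-content offsets as well).

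Several log2 fold changes turned in direction, among them large ones that did so without WT replicate 1 (*Cfi* from -1.95 to 1.12, *Lyve1* from -1.02 to 0.54, *Fcgr3* from -0.84 to 0.48 and *Cebpb* from -0.58 to 0.040). Without both replicate 2 libraries they were -0.17 for *Csf1r*, -0.17 for *Mrc1*, -0.10 for *Adgre1*, -0.13 for *C1qa*, -0.32 for *Csf1*, -0.17 for *Tyrobp*, 0.014 for *Cd68*, 0.18 for *Fcgr1* and -0.095 for *Syk*. Without the libraries highest in yolk sac markers they were -0.19 for *Adgre1*, 0.26 for *Lyve1*, 0.31 for *C1s1* and 0.076 for *Fcgr3*. *Cd68* was at 0.0093 with GC-content offsets, with or without the block. *Fcgr1*, at -0.0037, was at 0.019 with DESeq2, 0.062 with GC-content offsets, 0.00051 with GC-content offsets and replicate block, 0.010 with library size scaling and 0.015 with no count filter. When each library was left out, the log2 fold change was -0.12 to 0.22 for *Csf1r*, -0.068 to 0.36 for *Mrc1*, -0.18 to 0.17 for *Adgre1*, -0.0095 to 0.64 for *C1qa*, -0.048 to 0.29 for *C1qb*, -0.075 to 0.32 for *C1qc*, -0.19 to 0.42 for *Csf1*, -0.56 to 0.020 for *Maf*, -0.11 to 0.35 for *Tyrobp*, -0.12 to 0.033 for *Cd68*, -1.46 to 0.54 for *Lyve1*, -0.63 to 0.71 for *C1s1*, -0.34 to 0.17 for *Fcgr1*, -1.23 to 0.48 for *Fcgr3*, -0.040 to 0.12 for *Syk*, -0.85 to 0.040 for *Cebpb* and -3.37 to 1.12 for *Cfi*. The other named genes with a log2 fold change in the report kept their direction in every alternative that gave a value.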
